A study of Mus musculus with 16 samples.

Results

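The genes described here are 9 genes through which astrocytes handle potassium, water and cell-to-cell coupling: Kcnj10, Kcnj16, Gja1, Gjb6, Aqp4, Mlc1, Hepacam, Slc4a4 and Atp1b2. They were chosen by name, and each matched 1 of 48795 Ensembl identifiers in the deposited count table. All 9 passed the filter on low counts, which kept 20645 genes. They were read in 16 RNA-seq libraries of adult mouse striatum. Every mouse carried a transgene for Cas9 and EGFP in all cells (CAG promoter) and received 2 kinds of adeno-associated virus into the central striatum on both sides. One virus carried guide RNAs, directed at Crym in 4 Crym KO mice and at GFP in 4 Control mice, which the labels call WT. The other expressed Rpl22-HA, a tagged ribosomal protein, from the astrocyte promoter GfaABC1D in both genotypes, so the ribosomes of infected astrocytes could be pulled down with their RNA. The pulled-down RNA is called IP and the RNA of the whole lysate Input, and each mouse gave 1 library of each, so the 4 groups of 4 are Crym KO IP, Control IP, Crym KO Input and Control Input. Crym, the edited gene, encodes the thyroid hormone binding protein μ-crystallin, and the comparison of genotypes asks whether astrocyte RNA changed when Crym was lowered.

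Astrocytes clear the potassium that firing neurons release, through inwardly rectifying channels and the sodium pump, and spread it through a network of cells joined by gap junctions. Water moves with these ions through aquaporin channels that are concentrated on the endfeet that astrocytes wrap around vessels. MLC1 and GlialCAM form a complex at astrocyte junctions, and loss of either in humans causes a leukodystrophy with swollen white matter.

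Total counts were 39421209 to 62596661 per library. Crym was at 68.6, 66.0, 47.9 and 76.0 CPM (counts scaled to library size after TMM correction) in Crym KO IP, against 222, 125, 189 and 213 CPM in Control IP, a log2 fold change of -1.52 (SE 0.16, limma adjusted p = 0.000514), and the groups did not overlap. In whole striatum the log2 fold change of Crym was -0.34 (SE 0.17, limma adjusted p = 0.730). Rpl22, whose reads include the tagged transcript where sequences are shared, was higher in Crym KO IP than in Control IP (log2 fold change 0.93, SE 0.12, limma adjusted p = 0.00367). Counts of Xist and Ddx3y marked the mice numbered 1 and 2 as female, in either genotype, and those numbered 3 and 4 as male. The astrocyte identity of the IP held for all 15 astrocyte markers listed, which are other genes than the 9 and all rose in IP over Input in both genotypes. Their summed level was 28451 to 32975 CPM in Crym KO IP, 21644 to 30045 CPM in Control IP, 7551 to 7876 CPM in Crym KO Input and 7305 to 7717 CPM in Control Input. The lowest IP value was Control IP 2, which stood apart, and 7 of the 9 genes were at their lowest of the 8 IP libraries there, as were the IP over Input ratios of 9 of 9 among the 8 mice. Across genes, Crym KO IP 3 and Crym KO Input 3, labelled as 1 mouse, deviated together less than the other pairs (r = 0.0728). Markers of microglia, endothelium and leptomeninges fell in IP, 6 of 6, 7 of 7 and 4 of 4 in both genotypes. The 4 choroid plexus markers summed to 162 CPM in Control IP 4 and 613 CPM in Control Input 4, against 8.14 to 14.2 CPM in Crym KO IP and 11.9 to 14.1 CPM in Crym KO Input. The other Control libraries were at 11.4 to 24.2 CPM in IP and 11.0 to 15.9 CPM in Input.

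Each of the 9 genes rose in IP over Input under TMM scaling, in both genotypes, while scaling to the summed astrocyte markers put 6 of them below 0. In Crym KO mice 9 of 9 were called higher by limma at an adjusted p under 0.05, against 36.2% of all genes called higher and 37.9% called lower. In Control mice it was also 9 of 9, against 36.7% of all genes called higher and 38.5% called lower. For every gene the lowest of the 8 IP libraries lay above the highest of the 8 Input libraries. The share of all genes that separate in this way was not counted, so this does not set the 9 apart. The log2 fold changes ran from 1.40 for Slc4a4 to 2.35 for Aqp4 in Crym KO mice and from 1.37 to 2.27 for the same genes in Control mice, with medians of 1.81 and 1.55 beside medians over all genes of -0.02 in both. The highest limma adjusted p among them was 1.27e-09 in Crym KO mice and 1.73e-09 in Control mice.

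The 9 genes did not rise by the same amount, and Aqp4, Gja1 and Mlc1 stood above the other 6. Averaged over the 8 mice, the log2 ratio of IP over Input (log2 of CPM + 0.1) was 2.31 ± 0.26 for Aqp4, 2.24 ± 0.17 for Gja1 and 2.22 ± 0.20 for Mlc1 (SD, n = 8), that is 4.66-fold to 4.96-fold. It was 1.71 ± 0.21 for Gjb6, next in order, then 1.69 for Kcnj10, 1.59 for Atp1b2, 1.56 for Kcnj16, 1.56 for Hepacam and 1.38 for Slc4a4, that is 2.61-fold to 3.27-fold. The step between Mlc1 and Gjb6 was 0.51 ± 0.16 (SD) and had the same sign in 8 of 8 mice (exact sign-flip test, two-sided, p = 0.00781, adjusted over the 8 steps between neighbours 0.0312). The step between Hepacam and Slc4a4 was smaller, 0.17 ± 0.06, and also in 8 of 8 mice (exact sign-flip test, the same p and adjusted p, 0.00781 being the smallest that 8 mice can give). The other 6 steps did not pass, with an adjusted p from 0.229 to 1 in the exact sign-flip test, so the order within the upper 3 genes, and among Gjb6, Kcnj10, Atp1b2, Kcnj16 and Hepacam, is not resolved. Without Crym KO mouse 3 the step between Mlc1 and Gjb6 was 0.56. With any 1 mouse left out both steps kept their sign in all 7 others, although 7 mice cannot reach the threshold over 8 steps unless 3 steps have the smallest p.

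**Figure D1:**
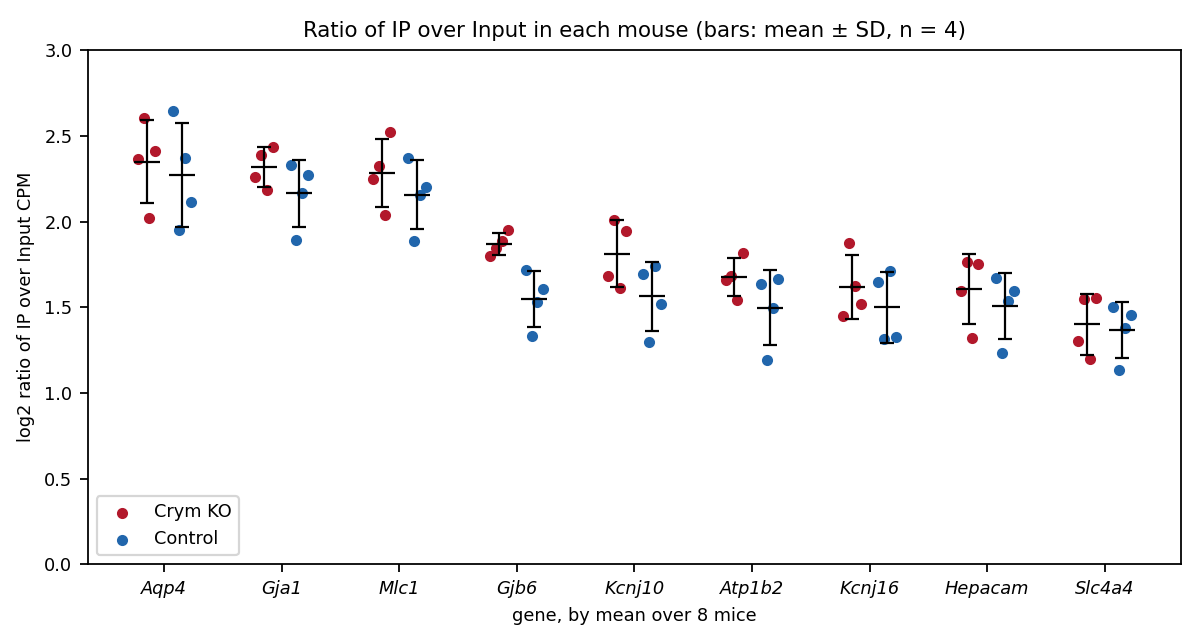
Log2 ratio of IP over Input CPM (vertical axis) for each of the 9 genes, ordered by the mean over 8 mice. Points are mice, Crym KO in red and Control in blue, and bars are mean ± SD (n = 4). Aqp4, Gja1 and Mlc1 sit near 2.2 to 2.3 and the other 6 genes between 1.38 and 1.71; scaled to the summed astrocyte markers instead of TMM, the upper 3 stay above 0 and the other 6 turn below it.

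Set against the median astrocyte marker the split was one of sign. The 15 markers themselves ran from 1.24 to 2.72 in Control mice and from 1.41 to 2.96 in Crym KO mice. All 9 genes lay within that range, except Slc4a4 just below it in Crym KO mice (1.40). Relative to the median marker in the same mouse, Aqp4 was higher by 0.24 ± 0.17, Gja1 by 0.17 ± 0.03 and Mlc1 by 0.15 ± 0.05 on the log2 scale, in 8 of 8 mice each (SD, n = 8). Gjb6 (-0.36 ± 0.12), Kcnj10, Atp1b2, Kcnj16, Hepacam and Slc4a4 (-0.69 ± 0.08) were lower than it in 8 of 8 mice. With libraries scaled to the summed markers in the limma fit, under which the median of all genes was -2.02 in Crym KO and -1.88 in Control mice, the log2 fold change of IP over Input stayed positive for Aqp4, Gja1 and Mlc1 and was negative for the other 6. Markers of other cell types also differed between IP and Input. The 5 ependymal markers, of cells that line the ventricle and are known to express Aqp4 and Gja1, rose in both genotypes, with sums of 52.3 to 94.9 CPM in Crym KO IP and 67.8 to 141 CPM in Control IP, against 14.1 to 19.8 CPM in Crym KO Input and 15.9 to 20.8 CPM in Control Input. The 4 oligodendrocyte precursor markers fell in both genotypes, with sums of 81.0 to 96.8 CPM in Crym KO IP and 59.1 to 87.7 CPM in Control IP, against 150.0 to 165 CPM in Crym KO Input and 149 to 159 CPM in Control Input. Of the 8 medium spiny neuron markers, genes of the main striatal neurons, 6 rose in Crym KO mice (median 0.50) and 7 in Control mice (median 0.59). Their sums were 3392 to 4258 CPM in Crym KO IP and 3307 to 4086 CPM in Control IP, against 2246 to 2826 CPM in Crym KO Input and 1875 to 2345 CPM in Control Input. Of 5 general neuron markers 1 rose and 2 fell in both genotypes, with a median of -0.08 in Crym KO and -0.14 in Control mice. Of 5 mural cell markers 2 rose and 3 fell in both genotypes. The part of these cell types in the ratios of the 9 genes and in their order was not tested.

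Per length of annotated exon (CPM per kb), Mlc1 was the most abundant of the 9 in all 4 groups and Kcnj16 the least. The length joins all annotated exons of a gene, from 2674 bp for Gjb6 to 10815 bp for Slc4a4, and the order depends on it. Other lengths were not tried. In plain CPM, Slc4a4 (917) and Aqp4 (872) were above Mlc1 (558) in Crym KO IP. In Control IP they were at 846 and 848 CPM, against 525 for Mlc1. Kcnj16 was the least in plain CPM too. Mlc1 averaged 199 ± 23.0 CPM per kb in Crym KO IP and 188 ± 34.0 in Control IP (SD, n = 4 each), and Aqp4, next, 139.9 ± 24.4 and 136 ± 25.8, with ranges that overlap those of Mlc1 in both groups. In IP the order went on with Slc4a4, Kcnj10 and Gja1, whose neighbouring ranges overlap, then Hepacam, Gjb6 and Atp1b2, likewise, and Kcnj16, which was apart at 15.7 ± 1.84 in Crym KO IP and 15.1 ± 0.703 in Control IP. In Input, Slc4a4 came before Aqp4, at 32.0 ± 1.65 against 27.2 ± 1.62 CPM per kb in Crym KO Input and 30.01 ± 1.80 against 27.9 ± 2.21 in Control Input, and the ranges of the pair overlap in Control Input only.

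Among the potassium channels, Kcnj10 (chromosome 1, 172341210 to 172374085, plus strand, GRCm38 as for all positions) encodes the pore subunit of the main inward rectifier of astrocytes. Kcnj16 (chromosome 11, 110968033 to 111027968, plus strand) encodes a subunit that joins it in mixed channels. Kcnj10 was at 316, 464, 372 and 401 CPM in Crym KO IP, against 414, 306, 366 and 359.8 CPM in Control IP. In Input it was at 98.3, 115, 122 and 104 CPM in Crym KO mice, against 128, 124, 109.5 and 125 CPM in Control mice. The genotypes overlap in both fractions, with Control IP 2 the lowest of the IP libraries, while each IP library is well above every Input library. The log2 fold change of IP over Input was 1.81 (SE 0.11) in Crym KO mice (limma adjusted p = 2.27e-10) and 1.56 (SE 0.11) in Control mice (limma adjusted p = 1.33e-09). Kcnj16 was at 56.7 to 72.2 CPM in Crym KO IP, 55.4 to 61.6 CPM in Control IP, 19.6 to 20.8 CPM in Crym KO Input and 18.1 to 24.7 CPM in Control Input. The genotypes overlap here too. Its log2 fold change of IP over Input was 1.62 (SE 0.09) in Crym KO and 1.51 (SE 0.09) in Control mice.

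Gja1 (chromosome 10, 56377330 to 56402513, plus strand) and Gjb6 (chromosome 14, 57123303 to 57133611, minus strand) encode the main connexins of astrocyte gap junctions. Gja1 was at 589, 619, 562 and 645 CPM in Crym KO IP, against 582, 478, 548 and 630.0 CPM in Control IP. In Input it was at 123, 118, 123 and 119 CPM in Crym KO mice, against 116, 129, 122 and 131 CPM in Control mice. These levels overlap between genotypes, and Gja1 had one of the narrowest spreads of the 9, with the log2 fold change of IP over Input at 2.32 (SE 0.07) in Crym KO and 2.16 (SE 0.07) in Control mice. Gjb6 was at 109, 104, 93.4 and 89.4 CPM in Crym KO IP, against 106, 96.8, 85.4 and 96.7 CPM in Control IP. In Input it was at 31.3, 28.9, 25.2 and 23.0 CPM in Crym KO mice, against 32.2, 38.5, 29.5 and 31.7 CPM in Control mice. The IP levels of Gjb6 interleave, whereas in Input 3 of the 4 Crym KO libraries lie below all 4 Control libraries. Its log2 fold change of IP over Input was 1.87 (SE 0.10) in Crym KO mice (limma adjusted p = 8.66e-11) and 1.55 (SE 0.10) in Control mice (limma adjusted p = 5.12e-10).

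Aqp4 encodes the water channel of astrocyte endfeet. It was at 829, 1084, 723 and 851 CPM in Crym KO IP, against 1069.6, 683, 814 and 826 CPM in Control IP. Its Input levels were 161, 178, 178 and 160.2 CPM in Crym KO mice, against 171, 177, 157 and 190.5 CPM in Control mice. The groups overlap in both fractions, and the IP spread was the widest of the 9 in both genotypes, at 17.5% of the mean in Crym KO IP and 19.0% in Control IP. Aqp4 had the highest ratio of IP over Input of the 9, with 2.35 (SE 0.12) in Crym KO and 2.27 (SE 0.12) in Control mice on the log2 scale. Only 0.591% of the genes tested had a higher ratio in Control mice, against 0.790% for Gja1 and 0.828% for Mlc1.

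Mlc1 (chromosome 15, 88955884 to 88979007, minus strand) encodes MLC1, a membrane protein of astrocyte junctions, and Hepacam (chromosome 9, 37367351 to 37386575, plus strand) encodes GlialCAM, the adhesion protein that brings MLC1 there. Mlc1 was at 536, 597, 478 and 622 CPM in Crym KO IP, against 615, 399.8, 506 and 582 CPM in Control IP. In Input its levels were 108 to 119 CPM in Crym KO mice and 108 to 126 CPM in Control mice. Hepacam was at 112 to 144 CPM in Crym KO IP, 104 to 148 CPM in Control IP, 41.2 to 44.6 CPM in Crym KO Input and 40.3 to 46.6 CPM in Control Input. For both genes the genotypes overlap and Control IP 2 is the lowest IP library. Mlc1 rose by 2.28 (SE 0.11) in Crym KO and 2.16 (SE 0.11) in Control mice on the log2 scale, and Hepacam by 1.61 (SE 0.10) and 1.51 (SE 0.10).

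Slc4a4 (chromosome 5, 88886818 to 89239653, plus strand) encodes the electrogenic sodium bicarbonate cotransporter that helps set astrocyte pH, and Atp1b2 (chromosome 11, 69599736 to 69605942, minus strand) a beta subunit of the sodium pump that is also known as an adhesion molecule on glia. Slc4a4 was at 837 to 1022 CPM in Crym KO IP, 653 to 936 CPM in Control IP, 328 to 369.9 CPM in Crym KO Input and 297 to 341 CPM in Control Input. Its log2 ratio of IP over Input, 1.40 (SE 0.09) in Crym KO and 1.37 (SE 0.09) in Control mice, was the lowest of the 9, with 4.50% of genes above it in Control mice. Atp1b2 was at 115 to 141 CPM in Crym KO IP, 95.01 to 138 CPM in Control IP, 36.9 to 43.3 CPM in Crym KO Input and 41.6 to 43.4 CPM in Control Input. Neither gene separates the genotypes in either fraction.

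**Figure D2:**
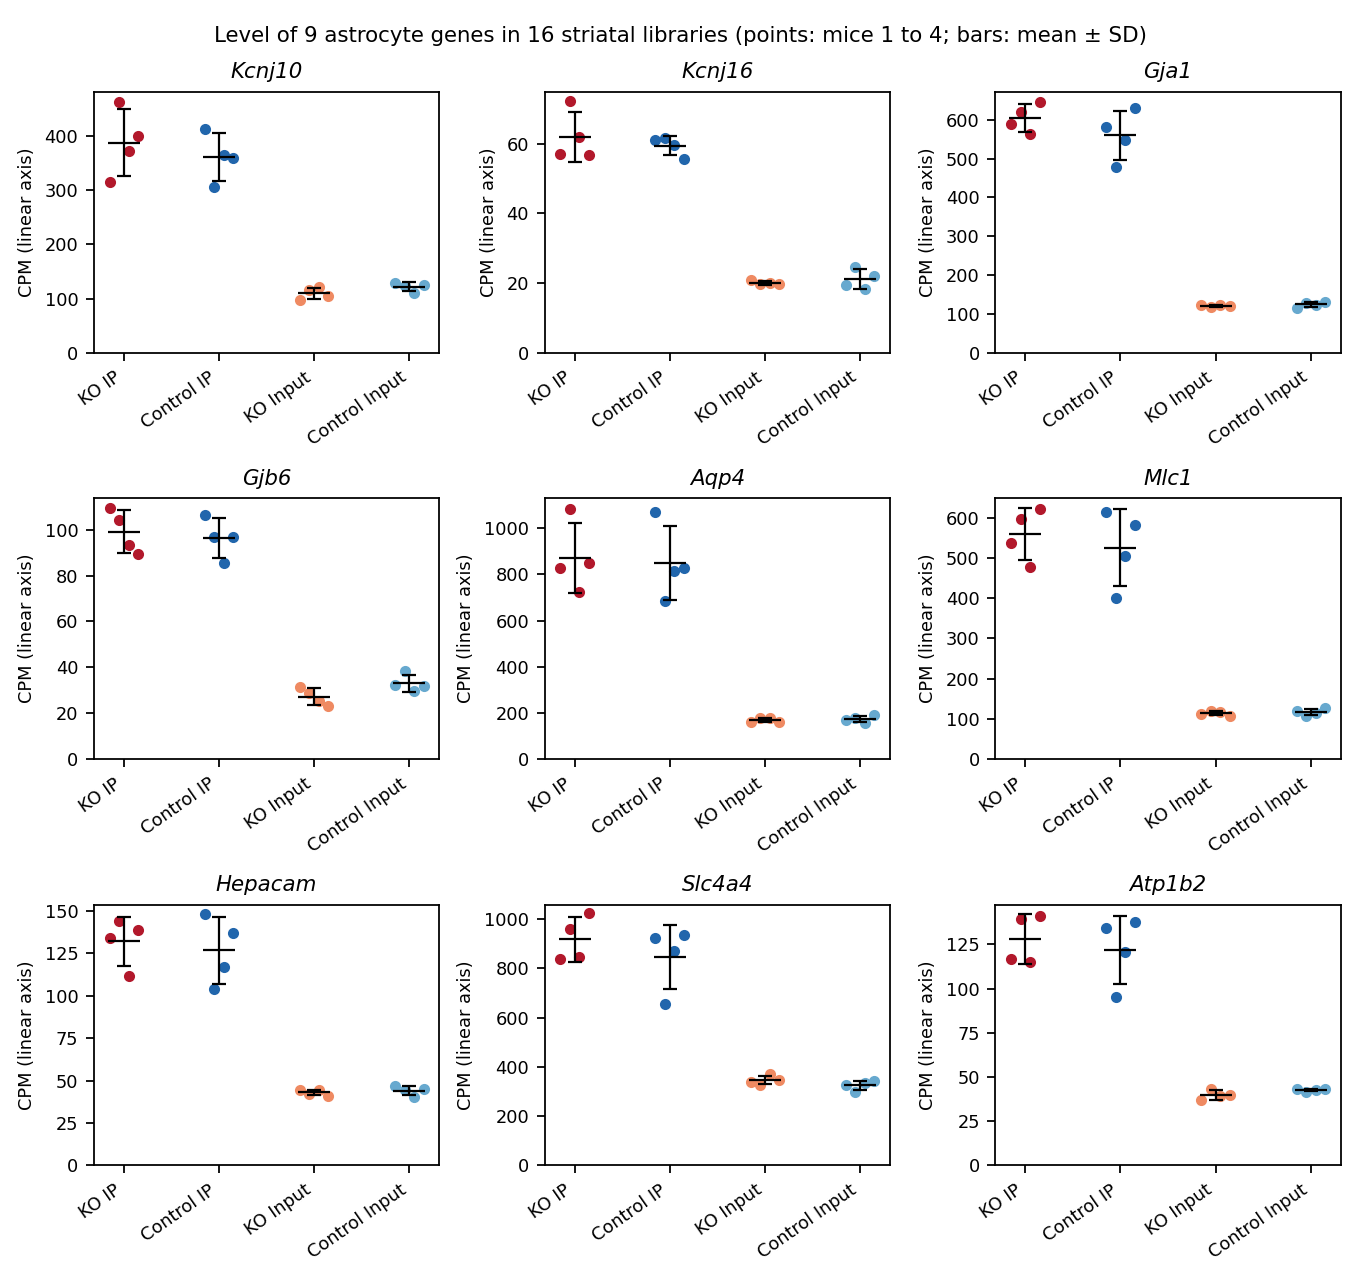
CPM (linear axis from 0) of each of the 9 genes in the 16 libraries, in the order Crym KO IP, Control IP, Crym KO Input and Control Input. Points are mice 1 to 4 and bars mean ± SD; each gene's IP libraries lie above all its Input libraries, and the genotypes overlap in each fraction.

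No difference between genotypes was detected in any of the 9 genes with 4 mice per group. In IP, 0 of 9 passed in limma, edgeR or DESeq2, against 0.0339% of all genes called by limma in Crym KO IP against Control IP. An unadjusted limma p under 0.05 was found for 0 of 9, against 1583 of 20645 genes. With the mouse number as a block 43 of 20645 genes were called, against 7 without it, and 0 of 9 passed as well. The log2 fold changes of Crym KO IP over Control IP ran from 0.04 for Gjb6 to 0.13 for Slc4a4. The nearest to the threshold was Gja1, at 0.12 (SE 0.07) with a 95% interval of -0.03 to 0.26 (limma adjusted p = 0.717). Over the 9 genes the intervals reach down to -0.21 (Aqp4) and up to 0.33 (Slc4a4). Exact permutation tests of 4 against 4 mice, two-sided, gave p from 0.286 to 0.714 in IP, where 0.0286 is the smallest possible. No gene's CPM separated the genotypes in either fraction, against 2.73% of all genes in IP and 5.67% in Input.

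All 9 estimates in IP were above 0, where 51.4% of all genes were, with a median of 0.08, but this depended on single libraries and on the scaling. The 15 astrocyte markers did the same, with 14 of 15 above 0, 0 past the threshold and a median of 0.12, while the 8 oligodendrocyte markers were all below 0 with a median of -0.29 and 0 past the threshold. Without Control IP 2 the estimates for the 9 genes were -0.05 to 0.07 with a median of 0.01, and 5 of 9 were above 0. Without Crym KO IP 2 the median was 0.02 and 7 of 9 were above 0, and without Crym KO IP 1 or Control IP 3 it was 8 of 9. Scaled to the summed astrocyte markers, under which the median of all genes was -0.17, all 9 were below 0, at -0.14 to -0.05. Within female mice they were 0.07 to 0.21 and within male mice -0.07 to 0.09, 6 of 9 above 0.

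In Input, 0 of 9 passed in limma, edgeR or DESeq2, against 0.00969% of all genes called by limma in Crym KO Input against Control Input. Without adjustment 1 of 9, Gjb6, had a limma p under 0.05, as did 1459 of 20645 genes. Input is whole tissue, in which fewer cells of a type and less RNA per cell cannot be told apart. Gjb6 averaged 27.1 ± 3.71 CPM in Crym KO Input and 33.0 ± 3.83 CPM in Control Input (SD, n = 4 each), a log2 fold change of -0.27 (SE 0.11) with a 95% interval of -0.50 to -0.05 (limma adjusted p = 0.654). It was below 0 under all 19 alternatives, with adjusted p from 0.131 upward. The summed astrocyte markers were at 7673 CPM in Crym KO Input and 7505 CPM in Control Input on average. Gene by gene, 6 of the 15 were above 0 in this comparison and 0 passed the threshold. Their median was -0.04 and their lowest value -0.28, near that of Gjb6. The 8 medium spiny neuron markers were all above 0 in this comparison, with a median of 0.23, 4 with an unadjusted limma p under 0.05 and 0 past the threshold, and the 5 ependymal markers were all below 0, with a median of -0.13 and 0 past it. Their part in the Gjb6 value was not tested. The other 8 genes ran from -0.15 (Kcnj10) to 0.09 (Slc4a4) in Input, with intervals that all include 0.

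**Figure D3:**
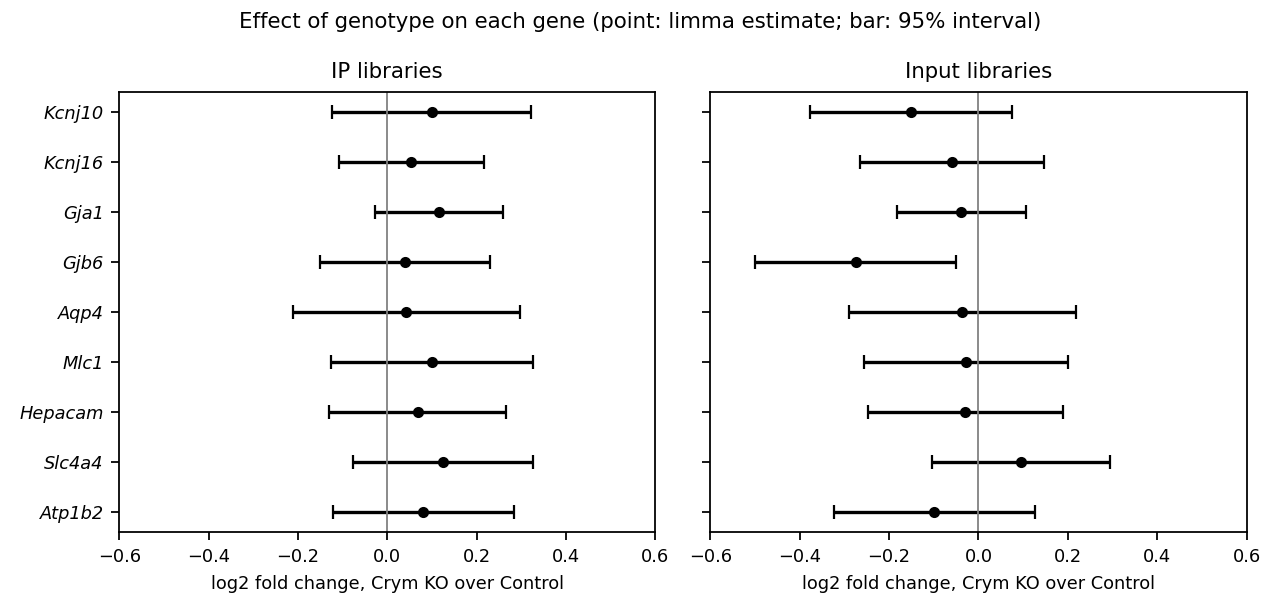
Log2 fold change of Crym KO over Control for each of the 9 genes in IP (left) and Input (right), with 95% intervals from limma. In IP all 9 points lie just above 0 with intervals that include it, and turn below 0 when libraries are scaled to astrocyte markers; in Input only the interval of Gjb6 leaves out 0, before adjustment over genes.

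The ratio of IP over Input was also compared between genotypes, and Gjb6 had the largest difference of the 9. Between genotypes the log2 fold change of Gjb6 was 0.04 in IP and -0.27 in Input, so this difference mostly restates the one in Input. Per mouse the log2 ratio was 1.80, 1.85, 1.88 and 1.95 in Crym KO mice, against 1.72, 1.33, 1.53 and 1.61 in Control mice. The 2 sets do not overlap (exact permutation test, two-sided, p = 0.0286, the smallest possible, adjusted over the 9 genes 0.257), where 2.94% of all genes also had sets that do not overlap. In the limma fit the difference was 0.32 (SE 0.14) with a limma adjusted p of 1.00 (unadjusted 0.0376), and it did not pass. None of the 9 passed in this comparison (limma and edgeR 0, DESeq2 0), against 0% of all genes in limma. Next was Kcnj10 at 0.25 (SE 0.15), and the difference was above 0 for 9 of 9, as it was for 15 of 15 astrocyte markers, whose median was 0.17 beside 0.13 for the 9 genes. All 8 oligodendrocyte markers (median -0.34) and all 8 medium spiny neuron markers (median -0.13) were below 0 in this comparison, 0 of them past the threshold, and their part in it was not tested. Without Control IP 2, which had the lowest ratios, the median of the 9 genes was 0.07 and 7 of 9 were above 0, and without Crym KO IP 2 or Crym KO IP 4 it was 8 of 9. Within male mice 6 of 9 were above 0, and within female mice 9 of 9. Scaled to the astrocyte markers, 4 of 9 were above 0 and the difference for Gjb6 was 0.17.

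Ratios between genes that work together were compared within a library, where scaling cancels. Gja1 had 5.39, 5.93, 6.02 and 7.22 counts per count of Gjb6 in Crym KO IP, against 5.47, 4.94, 6.41 and 6.51 in Control IP. In Input the same ratio was 3.93, 4.08, 4.90 and 5.17 in Crym KO mice, against 3.59, 3.35, 4.13 and 4.12 in Control mice. The ratio was thus higher in IP than in Input in 8 of 8 mice, by 0.53 ± 0.12 on the log2 scale, and overlaps between genotypes in both. Mlc1 rose over Hepacam by 0.66 ± 0.07 and Aqp4 over Kcnj10 by 0.62 ± 0.16, in 8 of 8 mice each. Of these 4 ratios Kcnj10 over Kcnj16 differed least, by 0.13 ± 0.15, higher in 6 of 8. In exact sign-flip tests, added after the data were seen, p adjusted over the 6 pairs computed was 0.00937 for each of the first 3 and 0.0391 for Kcnj10 over Kcnj16. Each such difference between IP and Input restates how far the genes of the pair differ in the ratios of IP over Input given above. These tests are therefore not separate support for that order. Between genotypes in IP none of the 4 ratios passed an exact permutation test (differences of -0.06 to 0.07 on the log2 scale, adjusted p 0.72 to 0.771).

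The 7 of these genes with a gene family listed, which leaves out Mlc1 and Hepacam, made up more of that family in IP. A share rises where a gene has a higher ratio of IP over Input than its family as a whole. The shares therefore largely restate the ratios given above. Shares were taken of length-corrected counts in each library. Gja1 held 47.0% ± 2.63 of the counts of 20 connexin genes in Crym KO IP and 43.6% ± 3.88 in Control IP, against 20.2% ± 0.532 in Crym KO Input and 20.2% ± 1.19 in Control Input (SD, n = 4 each). Gjb6 held 29.6% ± 2.16 in Crym KO IP and 28.8% ± 1.76 in Control IP, against 17.4% ± 2.15 in Crym KO Input and 20.6% ± 2.51 in Control Input. Both astrocyte connexins thus held a larger share in IP. Gjc3, a connexin of oligodendrocytes, held 6.11% in Crym KO IP and 7.70% in Control IP, against 21.5% in Crym KO Input and 20.1% in Control Input. A share also falls when other genes rise, and the level of Gjc3 itself fell less (log2 fold change -0.34 in Control IP over Control Input). Of the 8 oligodendrocyte markers, 3 rose and 1 fell in IP over Input in Control mice (median 0.22). In Crym KO mice 1 rose and 2 fell (median -0.11). Kcnj10 held 31.1% ± 4.14 of the counts of 15 inward rectifier genes in Crym KO IP and 30.8% ± 3.71 in Control IP, against 10.4% ± 0.989 in Crym KO Input and 11.5% ± 1.03 in Control Input. It stood beside Kcnj4, a neuronal member that still held 32.7% in Crym KO IP and 32.2% in Control IP. Kcnj16 held 6.82% ± 0.659 in Crym KO IP and 6.96% ± 0.361 in Control IP, against 2.61% ± 0.118 in Crym KO Input and 2.75% ± 0.508 in Control Input.

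Aqp4 was nearly the whole of its family. It held 98.8% ± 0.0810 of the counts of 11 aquaporins in Crym KO IP and 98.8% ± 0.210 in Control IP, against 95.1% ± 0.719 in Crym KO Input and 94.4% ± 1.89 in Control Input. Slc4a4 held 51.2% ± 3.51 of 10 bicarbonate transporters in Crym KO IP and 49.4% ± 5.93 in Control IP, against 30.7% ± 1.83 in Crym KO Input and 29.1% ± 1.11 in Control Input. Atp1b2 was a minor beta subunit in the RNA of these libraries, with 7.23% ± 0.923 in Crym KO IP and 6.69% ± 1.24 in Control IP, against 2.71% ± 0.0673 in Crym KO Input and 2.85% ± 0.101 in Control Input. Atp1b1, the main one of neurons, held 84.9% to 89.3% in the 4 groups. Most medium spiny neuron markers also rose in IP, whereas of 5 general neuron markers 1 rose and 2 fell in both genotypes. The 5 general neuron markers still summed to 3634 to 4860 CPM in Crym KO IP and 3530 to 4673 CPM in Control IP. The IP shares therefore do not describe astrocytes alone. All 7 shares were higher in IP in 8 of 8 mice (exact sign-flip test, two-sided, p = 0.00781, adjusted over 14 share tests 0.0156), and none differed between genotypes in IP (exact permutation test, adjusted p 0.4 to 0.943). The tests of IP against Input are not separate support for the rise of these genes in IP. The share of Gjb6 depended on length: without length correction it was higher by 1.09 percentage points instead of 10.2 (exact sign-flip test, adjusted p 0.0625). Without Control mouse 4, which held the choroid plexus transcripts, all 7 remained higher in IP in 7 of 7 mice.

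**Figure D4:**
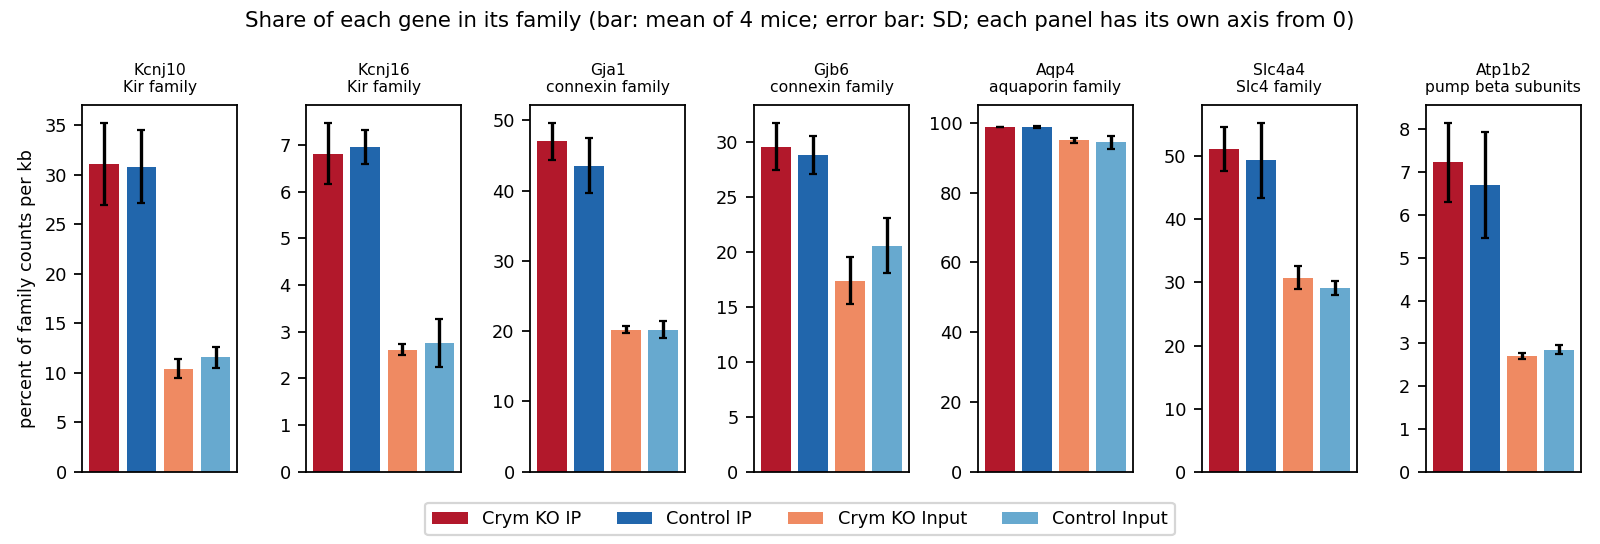
Share of each gene in the length-corrected counts of its family (percent, bars from 0, each panel with its own axis), in the order Crym KO IP, Control IP, Crym KO Input and Control Input; bars are means of 4 mice and error bars SD. All 7 shares are higher in IP than in Input, from under 3% to about 7% for Atp1b2 and about 20% to over 40% for Gja1.

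The partners of these genes were far less uniform. Of 87 related genes in 6 lists 64 could be tested. In Crym KO IP over Crym KO Input 32 rose, 20 fell and 12 did not pass, with a median of 0.16. In Control IP over Control Input 32 rose, 19 fell and 13 did not pass, with a median of 0.13. Between genotypes 0 of 64 passed in IP (10 with an unadjusted p under 0.05) and 0 of 64 in Input (5 unadjusted) in limma. Over all 20645 genes, 1583 had an unadjusted limma p under 0.05 in IP and 1459 in Input. All directions that follow are for IP over Input in Control mice under TMM, and scaled to astrocyte markers nearly all genes fall, with 78 of 20645 called higher.

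In the sodium pump list Fxyd1, a small regulator of the pump, rose by 2.12 (SE 0.17) on the log2 scale, more than Atp1b2 itself. Atp1b3, another beta subunit, rose by 0.36 (SE 0.06), while Fxyd5 fell by 2.83, Fxyd7 by 1.20 and Fxyd2 by 0.82. Of the 10 genes tested in the list, 5 rose and 3 fell. Among 14 bicarbonate, proton and chloride transporters 11 rose and 1 fell. The potassium chloride cotransporters Slc12a4 (1.61 (SE 0.08)) and Slc12a7 (1.46 (SE 0.17)) led, followed among the genes named by Car2, a carbonic anhydrase (1.03 (SE 0.08)), and Slc4a11 (0.62 (SE 0.24)).

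Around Aqp4, 6 of 8 tested genes rose and 1 fell. The syntrophin Sntb1 (1.48 (SE 0.21)) and the dystrobrevin Dtna (0.94 (SE 0.08)), members of the dystrophin complex that holds Aqp4 at endfeet, rose less than Aqp4. Aqp9, which also carries glycerol, rose by 1.35 (SE 0.15) at a low level, 3.28 CPM in Control IP and 1.30 CPM in Control Input, and Aqp11 fell by 0.71. Of 7 volume regulation genes 2 rose, Lrrc8a (0.99 (SE 0.09)), the obligatory subunit of the volume-regulated anion channel, and Lrrc8c (0.37 (SE 0.04)). In that list 3 fell, among them Cav1, abundant in endothelium, by 1.21 and Lrrc8b by 0.41.

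Other potassium channels split, with 5 of 14 higher and 6 lower. Kcnj14 (1.46 (SE 0.23)), Kcnk1, a leak channel known from astrocytes (0.90 (SE 0.05)), Kcnj5 (0.73 (SE 0.19)) and Kcnk10 (0.60 (SE 0.12)) rose. Kcnj8, a channel of mural cells, fell by 2.53, and the neuronal G-protein-gated channels Kcnj6, Kcnj9 and Kcnj3 fell by 1.28, 0.91 and 0.89. Of 11 other connexins and pannexins 3 rose and 5 fell. Gjd2, a neuronal connexin (0.83 (SE 0.09)), Gjb2 (0.61 (SE 0.14)) and Panx1 (0.23 (SE 0.06)) rose, and Gja6, Gjc1, Panx2 and Gjc3 fell by 2.30, 1.02, 0.69 and 0.34. No other connexin came near Gja1 or Gjb6 in its ratio.

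**Figure D5:**
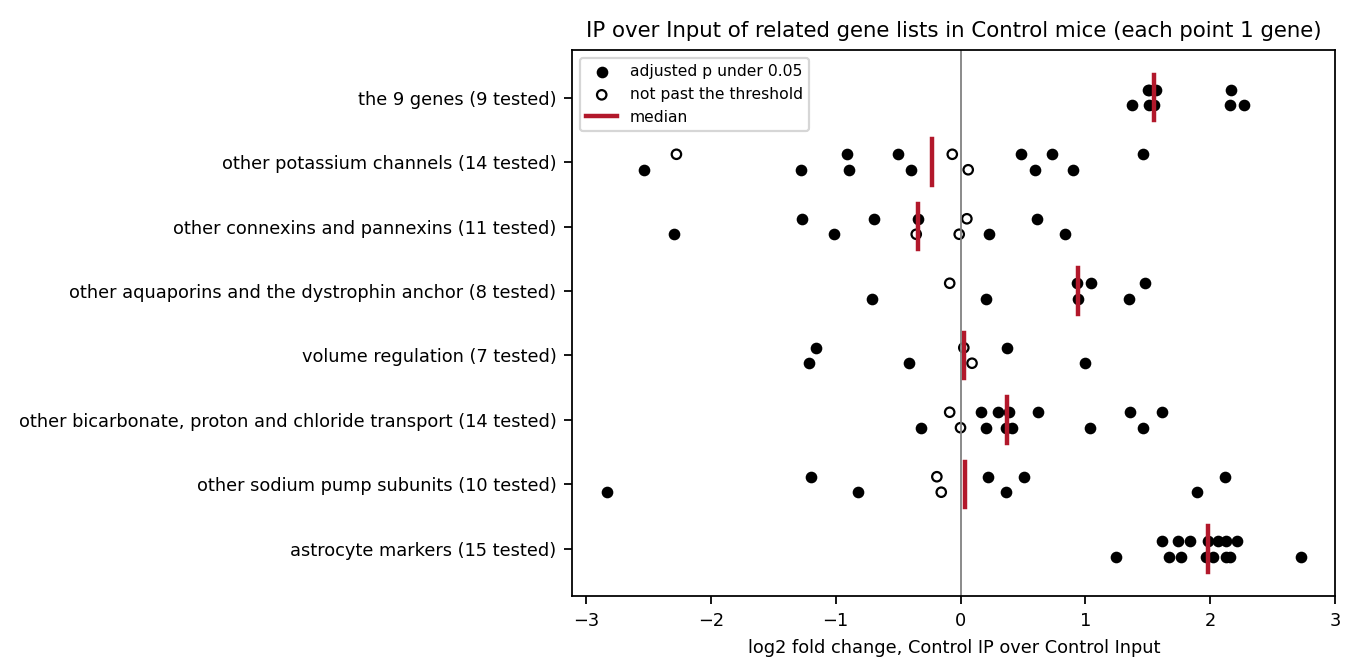
Log2 fold change of Control IP over Control Input for the 9 genes, 6 lists of related genes and 15 astrocyte markers, 1 point per gene tested, filled where the limma adjusted p is under 0.05, with a red line at each list's median. The 9 genes lie between 1.37 and 2.27, while the 6 lists of related genes run from -2.83 to 2.12 and the astrocyte markers from 1.24 to 2.72; scaled to astrocyte markers, 6 of the 9 genes and nearly all others fall below 0.

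The genes whose levels across the 16 libraries were most like the mean of the 9 were Serpine2, Gm13910, Dbx2, Fam181b and Pon2, among 10233 other genes with a mean of at least 10 CPM. Likeness was the root mean square distance between log2(CPM + 0.1) values centred on each gene's mean, and it was 0.0499 for Serpine2 and 0.0672 for Pon2. The 9 genes themselves lay 0.111 (Kcnj10) to 0.266 (Aqp4) from their own mean. Over the 8 IP libraries alone 5 other genes were nearest, led by Paqr4, and Serpine2 came 40th, so the order of likeness differs without the step between IP and Input.

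The start sites of 5 genes named in the contrasts above are shown, 250 bases before to 50 after the annotated start (RefSeq, GRCm38.p6). Their part in the ratios of IP over Input was not tested. For 7 of the 9 genes there were 11 such windows. Mlc1 and Hepacam are shown as partners that differ in enrichment, Gja1 and Gjb6 likewise, and Kcnj10 for the channel. Capitals mark any of 3 motifs searched on both strands, which share no bases in these windows: TTGGCA, a site of nuclear factor I, ACAAAG, a SOX site, and TTCNNNGAA, a STAT site.
Mlc1, chr15:88978504-88978803, minus strand: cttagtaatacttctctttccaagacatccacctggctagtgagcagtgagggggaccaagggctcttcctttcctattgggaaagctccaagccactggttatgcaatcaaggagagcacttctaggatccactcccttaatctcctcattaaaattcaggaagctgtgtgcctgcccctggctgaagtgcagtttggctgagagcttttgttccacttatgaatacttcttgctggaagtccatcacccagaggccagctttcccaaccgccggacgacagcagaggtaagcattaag
Hepacam, chr9:37367356-37367655, plus strand: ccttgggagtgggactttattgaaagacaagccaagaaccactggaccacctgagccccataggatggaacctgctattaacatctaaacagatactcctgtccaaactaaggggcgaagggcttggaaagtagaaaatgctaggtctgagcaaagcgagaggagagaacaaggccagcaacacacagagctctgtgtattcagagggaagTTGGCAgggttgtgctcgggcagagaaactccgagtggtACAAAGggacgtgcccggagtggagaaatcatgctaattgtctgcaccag
Gja1, chr10:56377050-56377349, plus strand: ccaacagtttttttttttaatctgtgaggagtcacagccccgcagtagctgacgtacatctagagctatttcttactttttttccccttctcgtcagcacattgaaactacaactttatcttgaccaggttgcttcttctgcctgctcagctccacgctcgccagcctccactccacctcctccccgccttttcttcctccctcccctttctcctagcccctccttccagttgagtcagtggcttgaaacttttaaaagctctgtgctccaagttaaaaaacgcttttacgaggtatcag
Gjb6, chr14:57133562-57133861, minus strand: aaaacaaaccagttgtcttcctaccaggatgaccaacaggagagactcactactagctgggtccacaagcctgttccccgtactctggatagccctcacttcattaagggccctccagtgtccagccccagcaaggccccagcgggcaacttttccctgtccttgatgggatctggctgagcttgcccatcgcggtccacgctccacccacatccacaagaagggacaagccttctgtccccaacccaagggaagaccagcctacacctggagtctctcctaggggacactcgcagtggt
Kcnj10, chr1:172340960-172341259, plus strand: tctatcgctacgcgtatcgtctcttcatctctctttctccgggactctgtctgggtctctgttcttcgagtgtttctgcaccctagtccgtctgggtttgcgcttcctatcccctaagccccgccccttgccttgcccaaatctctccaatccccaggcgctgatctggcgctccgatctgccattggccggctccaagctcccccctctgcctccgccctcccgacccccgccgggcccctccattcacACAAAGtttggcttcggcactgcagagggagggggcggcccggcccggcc
Of the 5 windows shown, that of Hepacam held TTGGCA and ACAAAG once each and that of Kcnj10 ACAAAG once, while those of Mlc1, Gja1 and Gjb6 held none of the 3. Over the 11 windows, 3 held TTGGCA (14.1% of 32851 windows of all genes), 2 held ACAAAG (18.7%) and 1 held TTCNNNGAA (8.30%). Kcnj16 and Slc4a4 each have windows for alternative starts among the 11, so windows cannot be counted as genes. The windows with TTGGCA belong to Kcnj16 and Hepacam only. GC content differed widely, from 47.7% for Gja1 to 63.7% for Kcnj10 among the windows shown.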

How the data were processed

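The authors deposited whole-number counts of reads per gene for 16 libraries. By the study's methods, RNA was depleted of ribosomal RNA, sequenced in 1 pool and aligned with STAR to mm10, and HTSeq counted uniquely mapped reads; whether strand was used is not given in the sources used here. The methods name a RefSeq gene model but the identifiers are Ensembl, matched here to GENCODE M21 (GRCm38); 360 of 48795 did not match and held 0.0765% of counts. No other gene overlapped the 9. The sequences are RefSeq's.

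The test was limma-voom (limma 3.58.1, edgeR 4.0.16, R 4.3.3) on all 16 libraries with TMM, the edgeR expression filter and 4 group means, p adjusted by Benjamini-Hochberg over 20645 genes with a threshold of 0.05. An equal number marks the IP and the Input of 1 mouse. Same-number libraries deviated together in all 4 pairs between Crym KO IP and Control IP (r 0.163 to 0.312), where equal numbers were also of equal sex. Exact tests used Python 3.11.15. Alternatives were edgeR and DESeq2 1.42.0, other scalings, no filter, subsets, a replicate block and each library left out. The fit was tested on simulated data. The 9 genes and all lists were chosen with earlier results of these data known. Named partners were, per list, up to 4 highest and 4 lowest ratios among genes past it whose higher group reached 1 CPM, plus genes in the 6 pairs; some of these genes and 2 of the pairs are not reported here.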

Additional observations from a re-analysis of the deposited data

How the results depend on the processing

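Of the 9 genes, 9 passed in IP over Input in Crym KO and in Control mice, and 0 between genotypes in IP, in Input or in the ratio of IP over Input. These counts were the same under every alternative fitted except scaling to astrocyte markers, and the replicate block (paired by number between genotypes and by mouse between IP and Input) gave 9, 9, 0, 0 and 0 in that order. Over all genes the block called 43 against 7 in IP and 15 against 2 in Input, DESeq2 68 and 47, and the fit on only the 8 libraries of a contrast 2 and 0. Same-number libraries of the genotypes correlated at 0.0646 to 0.195 in Input, and the main fit paired the genotypes by number in neither fraction. Leaving out each library in turn gave 0 calls between genotypes and 9 in IP over Input, lowest and highest alike. Scaling to astrocyte markers turned the log2 ratio of IP over Input in Crym KO mice to -0.19 for Kcnj10, -0.38 for Kcnj16, -0.13 for Gjb6, -0.39 for Hepacam, -0.60 for Slc4a4 and -0.32 for Atp1b2, and in Control mice to -0.29 for Kcnj10, -0.35 for Kcnj16, -0.30 for Gjb6, -0.34 for Hepacam, -0.48 for Slc4a4 and -0.35 for Atp1b2; this follows from its construction, since the markers rose more. Under that scaling 7 of 9 passed in Crym KO mice, 3 higher and 4 lower, and 9 of 9 in Control mice, 3 higher and 6 lower. Under upper-quartile and library-size scaling the median of all genes was -0.18 and -0.22 in Control IP over Input, against -0.02 under TMM, and they changed no call on the 9. The step from Kcnj10 to Atp1b2 passed without Control mouse 4 (0.14). A pseudocount of 0.5 CPM changed no call. The genotype comparison rests on 4 mice per group.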
